A study of Drosophila melanogaster with 2 samples.

Results

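Glutathione S-transferases (GSTs) were described in polyadenylated RNA of whole adult Drosophila melanogaster. Members were all genes in the deposited expression table whose symbol in the deposited annotation begins with Gst followed by a class letter. The rule found 35 genes of 19391 loci in the table: 11 of class D (delta), 14 of class E (epsilon), 3 of class O (omega), 1 of class S (sigma), 4 of class T (theta) and 2 of class Z (zeta). There were 2 libraries. One was made from females and the other from males, aged 3 to 5 days, of the same 192 lines of the DGRP (Drosophila Genetic Reference Panel, inbred lines derived from a wild population). No treatment is named in the labels of either library, and the flies of both were grown at 25°C on a cornmeal and molasses medium. RNA of the lines was pooled before sequencing, so each value is a mean over genotypes and nothing can be said about a single line. With 1 library per sex no difference below has a replicate check, no p-value is given, and each value describes these libraries.

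GSTs join the thiol of glutathione to electrophilic compounds, which makes them more soluble and easier to export. In insects they are known for the metabolism of insecticides and plant toxins, and for clearing aldehydes formed when lipids are oxidised. Delta and epsilon enzymes are the classes that have expanded most in insects, largely as tandem copies, whereas omega, sigma, theta and zeta enzymes also occur in vertebrates. In flies the gut, the Malpighian tubules (the excretory organ) and the fat body are known sites of their expression.

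Levels are FPKM (fragment counts normalised for transcript length and for library size), so they can be compared between genes of different length. No member was listed at 0. At least 1 FPKM was listed for 32 members in females and 34 in males, at least 10 FPKM for 21 in females and 26 in males, and at least 100 FPKM for 4 in females and 8 in males. The members that were low in both libraries were mostly tandem copies of class D. The order of levels was similar in the 2 libraries, with a Spearman rho of 0.87 across the 35 genes. This is a description across genes, which share their libraries and are not independent. The corresponding rho over all 19391 loci was 0.67.

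**Figure D1:**
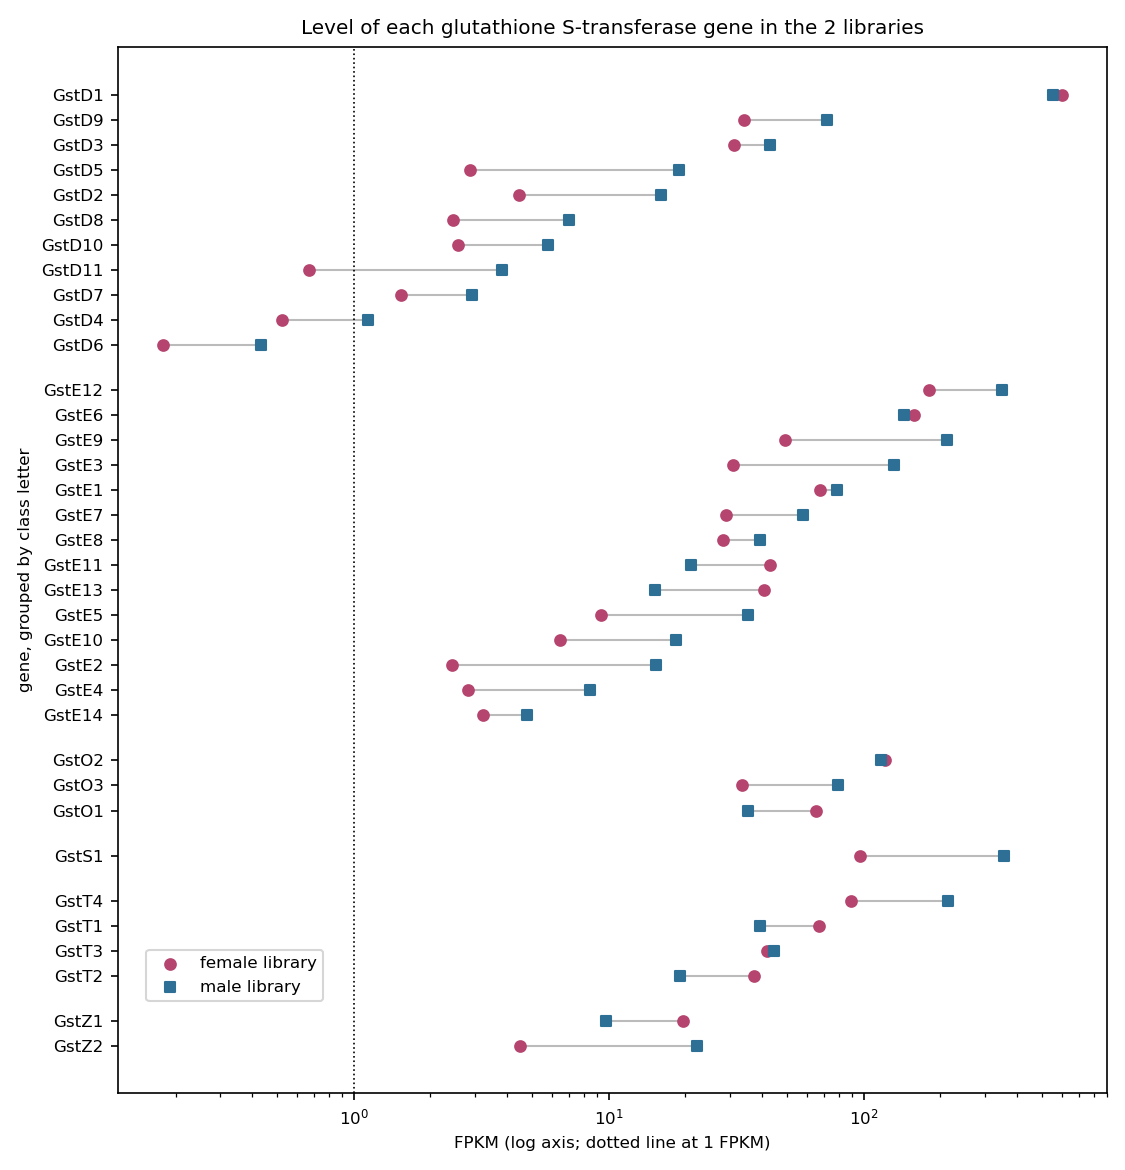
FPKM (log axis) of each of the 35 genes in the female library (circles) and the male library (squares), grouped by class letter and ordered within a class by mean level. GstD1 lies at the right edge in both libraries, and GstD4 and GstD6 lie near or below the dotted line at 1 FPKM.

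The summed level of the 35 genes was 1909 FPKM in females and 2794 FPKM in males. As a share of the whole library this was 0.285% of all FPKM in females and 0.294% in males, so the family as a sum took a similar share of both. The genes behind the sum differed. GstD1, the enzyme known for acting on DDT and widely used as a reporter of oxidative stress, made up 31.5% of the family in females and 19.8% in males. Without GstD1 the remaining 34 genes held 0.196% of the female library and 0.235% of the male library.

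The 5 highest members in females were GstD1, GstE12, GstE6, GstO2 and GstS1, with 60.7% of the family sum. In males they were GstD1, GstS1, GstE12, GstT4 and GstE9, with 60.4%. Of these, 3 were shared. The share of GstS1 was 5.06% in females and 12.7% in males, and that of GstE9 was 2.59% in females and 7.57% in males. The shares of GstE6 were 8.26% in females and 5.16% in males, and those of GstO2 were 6.39% in females and 4.17% in males. These shares do not depend on how one library is scaled against the other.

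**Figure D2:**
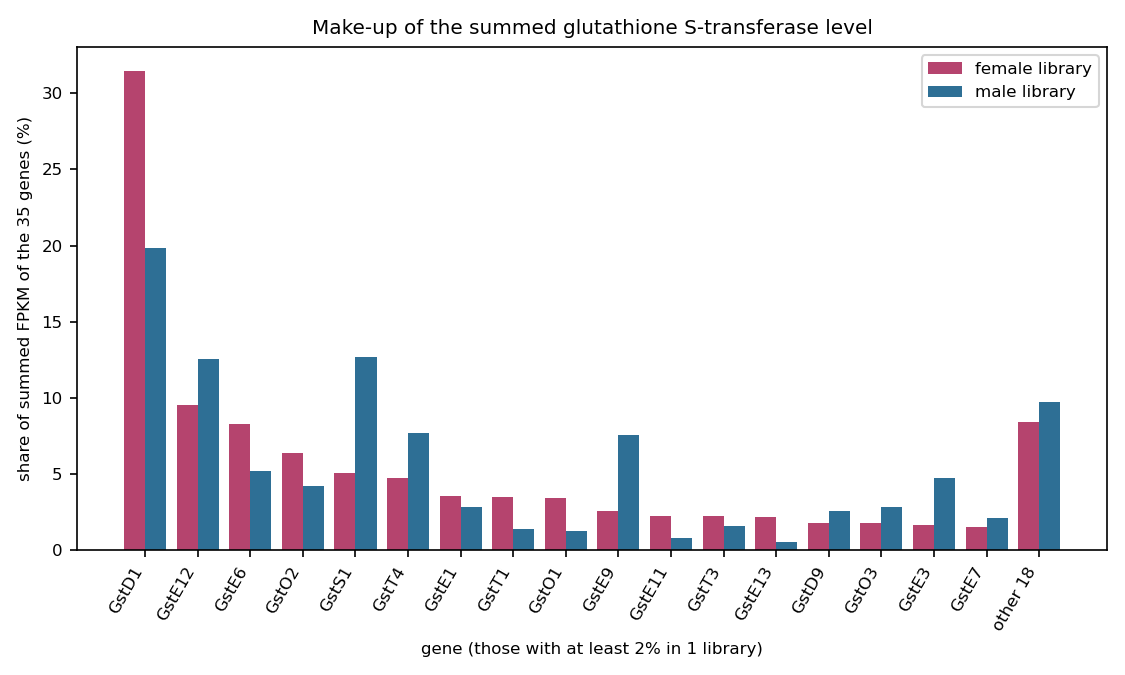
Share (%) of the summed FPKM of the 35 genes held by each of the 17 genes with at least 2% in 1 library, and by the other 18 together, in the female (left bar) and male (right bar) library. GstD1 holds 31.5% in females and 19.8% in males, while GstS1, GstE9, GstE3 and GstT4 hold larger shares in males.

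The difference between libraries was measured as log2((female FPKM + 1)/(male FPKM + 1)), so a negative value means lower in females, and the added 1 FPKM makes the change of a low gene look smaller than it is. Only loci that reached 1 FPKM in either library were counted, which left 34 members and omitted GstD6 (0.179 FPKM in females, 0.435 FPKM in males). One member, GstE13, was at least 2-fold higher in females (1 of 34, 2.94%), where 21.5% of all 14108 loci counted passed the same line. The added 1 FPKM decides this count: GstE11 and GstZ1 were at 204% and 201% of the male level on the listed FPKM, and with 0.1 FPKM added in its place 3 members passed. At least 2-fold higher in males were 15 of 34 (44.1%), against 40.7% of all loci, a share near the background. The median log2 ratio was −0.94 over the members and −0.58 over all loci counted. The comparison with other loci depended on the filter. With at least 1 FPKM required in both libraries, which leaves out many loci seen in 1 sex only, 14 of 32 members (43.8%) were at least 2-fold higher in males against 24.3% of 9805 loci. Under the same filter 1 of 32 members (3.13%) was at least 2-fold higher in females, against 28.1% of loci, and the median over all loci was 0.17 while that of the members was −0.94.

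The sums of the libraries differ, at 669223 FPKM in females and 951735 FPKM in males, so the counts also depend on scaling. With both libraries set to the same sum, 6 members (17.6%) were at least 2-fold higher in females, against 30.6% of all loci counted, and 9 (26.5%) in males, against 31.2% of all loci. Centring on the median of all loci gave 6 members (17.6%) in females, against 32.7% of all loci, and 8 (23.5%) in males, against 26.3%. Setting the medians of 93 ribosomal protein genes equal (the ribosomal protein scaling) gave 0 in females, against 8.67% of all loci, and 24 (70.6%) in males, against 57.2%. The male share of the members was thus below that of all loci with equal sums and with centring, and above it under the ribosomal protein scaling. These scalings moved the median of all loci counted by 0.41, 0.58 and −0.73. In 22 of the 35 members the sign of the ratio was the same under all of them. Of these, 19 were higher in males and 3 in females (GstE11, GstE13 and GstZ1). The same tally was not made over all loci. On the values as deposited, 8425 of the 14108 loci counted had a negative ratio and 5683 a positive one. Under the ribosomal protein scaling GstE11 was at 0.05 and GstZ1 at 0.03, so in these 2 the libraries were then nearly equal. At least 2-fold higher in males under every scaling were 8 members: GstD2, GstD5, GstE2, GstE3, GstE5, GstE9, GstS1 and GstZ2. They are the 8 members counted with centring, where 26.3% of all loci passed. The share of all loci past 2-fold under every scaling was not computed. No member was at least 2-fold higher in females under every scaling.

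**Figure D3:**
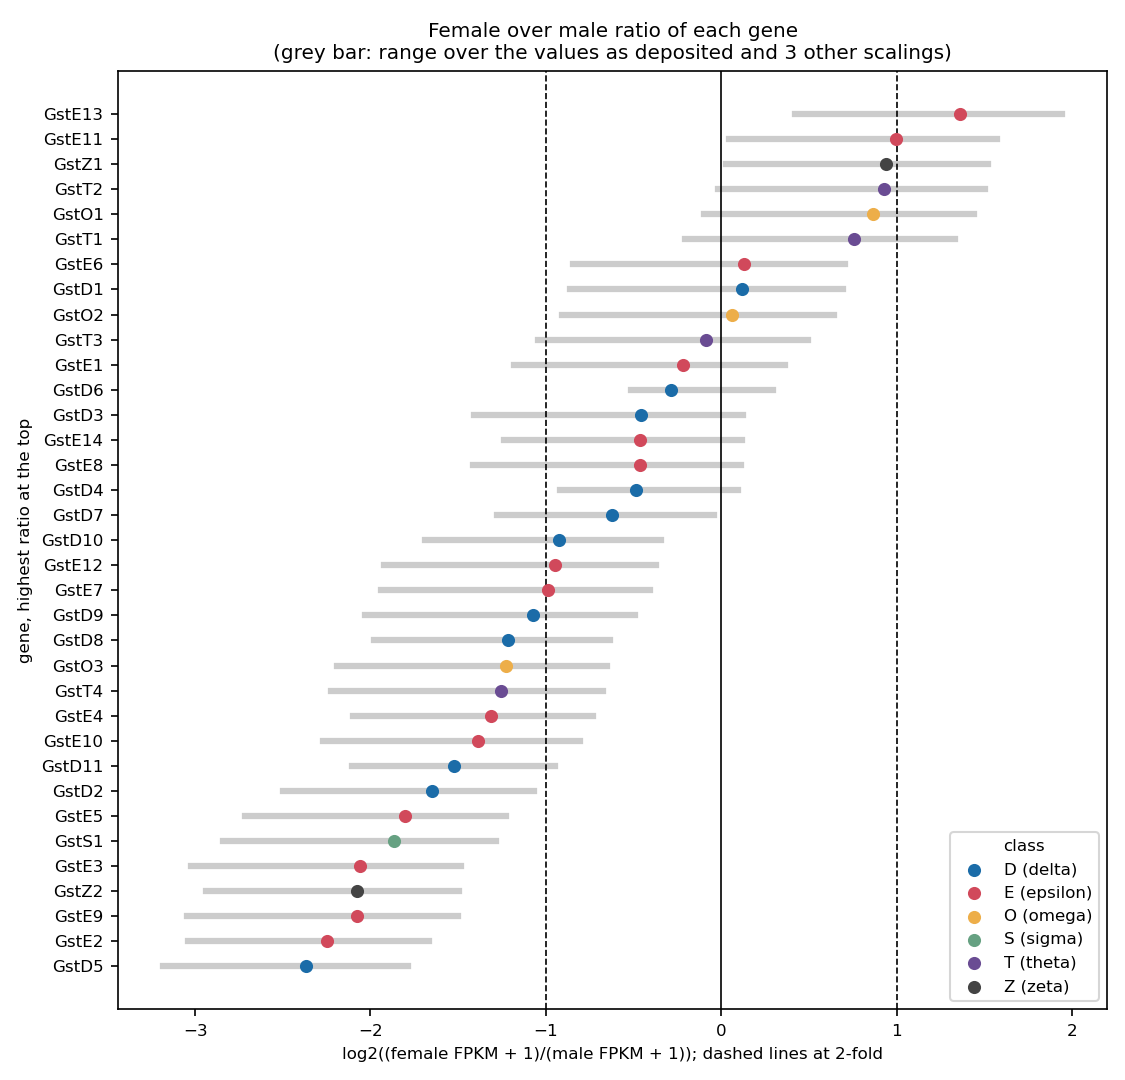
log2((female FPKM + 1)/(male FPKM + 1)) of each gene, coloured by class, from the highest ratio at the top (GstE13, 1.36) to the lowest (GstD5, −2.37). Grey bars span the values as deposited and the 3 other scalings, and dashed lines mark 2-fold.

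Whole flies contain organs in different proportions in the 2 sexes, and a different share of an organ in the RNA cannot be told apart from a different level per cell. Marker genes were therefore read beside the GSTs. Ovary and eggshell markers were all higher in females (5 of 5, median log2 ratio 4.60, summed level 2130 FPKM in females and 103 FPKM in males). Accessory gland markers were all higher in males (4 of 4, median −8.81, summed level 2.74 FPKM in females and 3657 FPKM in males). Of 5 testis markers 4 were higher in males. The exception, bam, is also used in the female germline. Both libraries thus carried the markers of their labelled sex. The male library still listed Cp36 at 47.7 FPKM and Vm26Aa at 41.1 FPKM, with osk, nos and bcd at 9.95, 3.72 and 0.784 FPKM. What these values reflect was not tested.

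Markers of organs that both sexes share were lower in females, under all scalings used. All 5 Malpighian tubule markers were lower (median −1.27, range −1.52 to −0.94, summed level 96.8 FPKM in females and 228 FPKM in males). All 5 midgut markers were lower too (median −1.48, range −1.61 to −0.79, summed level 4410 FPKM in females and 8541 FPKM in males). Eye markers had a median of −1.61 (3 of 3 lower, summed level 914 FPKM in females and 2798 FPKM in males) and muscle markers of −1.90 (3 of 3 lower, 278 FPKM in females and 1038 FPKM in males). The fat body list could not be read in the same way, because the yolk proteins Yp1, Yp2 and Yp3 in it are female products. Its members Lsp2 and Fbp1 were at 28.5 FPKM in females and 87.3 FPKM in males, and at 0.0773 FPKM in females and 0.0459 FPKM in males. The part of organ proportions in the GST ratios was not tested.

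**Figure D4:**
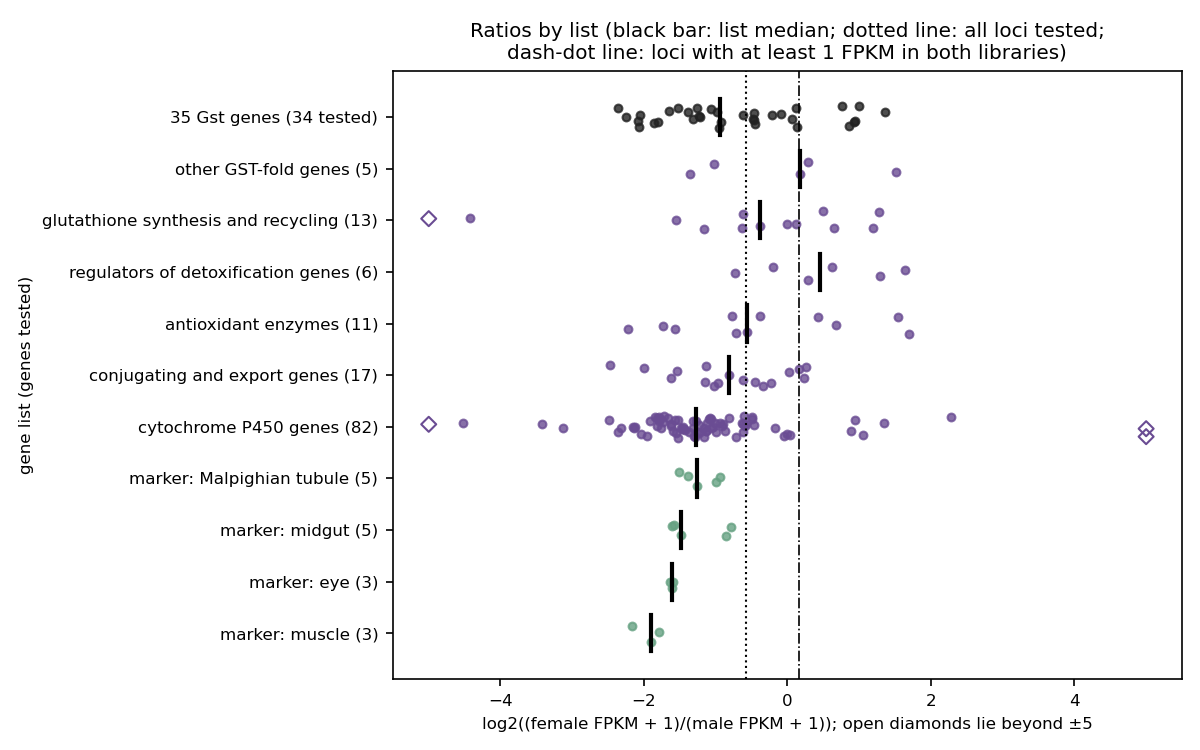
log2((female FPKM + 1)/(male FPKM + 1)) of single genes in the GST family, in related lists and in markers of 4 organs, with the list median as a black bar. The median of the GSTs (−0.94) lies below that of all loci counted (dotted line, −0.58) and above the medians of the 4 organ lists, and 4 genes lie beyond the plotted limits of ±5.

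The delta class forms 1 cluster on arm 3R (8190496 to 8211346 in the deposited annotation, whose build is BDGP5 per the submitters' processing notes). It spans 20.9 kb and holds 11 members, 3 on the minus strand (GstD10, GstD9, GstD1) and 8 on the plus strand. In females the levels ran from 0.179 FPKM (GstD6) to 601 FPKM (GstD1), and in males the same genes gave the extremes, 0.435 and 554 FPKM. Levels thus differed far more between genes of the cluster than between the libraries. GstD1 alone held most of the class: the other 10 genes summed to 80.2 FPKM in females and 171 FPKM in males.

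GstD1 (FBgn0001149, 3R, 8193269 to 8194987, minus strand) had 601 FPKM in females and 554 FPKM in males, a log2 ratio of 0.12. It was the 162nd locus by level in females and the 295th in males. The direction is not settled by these data, since the ratio was −0.86 with ribosomal protein genes set equal and 0.62 with equal sums. Its annotated exons overlap those of GstD9 by 18 nt on the same strand. GstD9, the next gene, had 33.8 FPKM in females and 72.2 FPKM in males (log2 ratio −1.07), so the excess of GstD1 over GstD9 was 17.8-fold in females and 7.68-fold in males. GstD10 had 2.56 FPKM in females and 5.76 FPKM in males (−0.93).

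The 7 single-exon genes GstD2 to GstD8 lie head to tail on the plus strand. On the values as deposited none was higher in females, and the log2 ratios of the 6 counted ranged from −2.37 to −0.45. With centring, GstD3, GstD4 and GstD6 turned positive, at 0.12, 0.09 and 0.30. For GstD4 and GstD6, which are low, this depends on the added 1 FPKM. With 0.1 FPKM added they were at −0.98 and −0.94, where the median of all loci counted was −0.69. With equal sums they stayed negative, at −0.26 and −0.17. GstD5 had the lowest ratio of the family, with 2.86 FPKM in females and 18.9 FPKM in males (log2 ratio −2.37), so the female level was 15.1% of the male one. GstD2 had 4.46 FPKM in females and 16.1 FPKM in males (−1.65). These are low genes whose ratios were past 2-fold under every scaling.

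GstD3, known to lack part of the N-terminal region that carries the catalytic residue of other delta enzymes, was the highest of the 7. It had 31.1 FPKM in females and 43.1 FPKM in males (−0.45, which became 0.04 with equal sums). Its annotated coding part of 200 codons was the shortest of the 35 members, in which GstT3 had the longest (269 codons). Only GstD1 and GstD9 stood above it in the class, in females and in males.

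The remaining genes of the row were near the lower end of what was listed. GstD4 had 0.525 FPKM in females and 1.13 FPKM in males, and GstD7 had 1.54 FPKM in females and 2.90 FPKM in males (−0.62). GstD8 had 2.45 FPKM in females and 7.00 FPKM in males (−1.21). GstD11, a gene with several exons at the far end of the cluster, had 0.669 FPKM in females and 3.80 FPKM in males (−1.53). The pseudocount matters here: with 0.1 FPKM in place of 1 FPKM the ratio of GstD11 was −2.34 and that of GstD4 was −0.98 in place of −0.48. Depth is unknown, so no counting interval can be given for these low values.

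The epsilon class has a cluster of 10 genes on arm 2R (14284143 to 14297340, 13.2 kb), GstE1 to GstE10, each with a single exon, and 4 members elsewhere on the arm. In the cluster 6 of 10 genes were at least 2-fold higher in males (4 with equal sums or centring, 9 under the ribosomal protein scaling). None was in females, and the median log2 ratio was −1.35. Of all loci counted, 40.7% were at least 2-fold higher in males and 21.5% in females. The male share of all loci was 31.2% with equal sums, 26.3% with centring and 57.2% under the ribosomal protein scaling. Its summed level was 383 FPKM in females and 740 FPKM in males. The 4 dispersed members GstE11 to GstE14 had a median of 0.27 (−0.60 under the ribosomal protein scaling), and on the values as deposited none was at least 2-fold higher in males. The difference between the cluster and the dispersed genes was not tested.

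Levels and ratios varied along the cluster. GstE6 was the highest in females, with 158 FPKM in females and 144 FPKM in males (log2 ratio 0.13, and −0.85 under the ribosomal protein scaling). GstE9, at the end of the cluster, was the highest in males, with 49.4 FPKM in females and 212 FPKM in males (−2.08). The excess of GstE6 over GstE9 was 3.19-fold in females, while in males GstE6 was 0.681 times GstE9. The 2 genes thus changed places between the libraries. GstE9 overlaps exons of imd, on the other strand, by 45 nt, and imd was far lower (7.76 FPKM in females, 15.8 FPKM in males).

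GstE2 and GstE3 were the members of this cluster nearest to GstE9 in ratio. GstE2 had 2.44 FPKM in females and 15.3 FPKM in males (−2.25), and GstE3 had 30.7 FPKM in females and 131 FPKM in males (−2.06). Adjacent to GstE2, GstE1 had 67.6 FPKM in females and 78.8 FPKM in males (−0.22, which became 0.28 with equal sums). GstE1 was 27.7 times GstE2 in females and 5.15 times in males, although only 269 nt separate them. GstE5 had 9.36 FPKM in females and 35.2 FPKM in males (−1.80), GstE10 had 6.43 FPKM in females and 18.4 FPKM in males (−1.39), and GstE4, the lowest of the cluster in males, had 2.80 FPKM in females and 8.43 FPKM in males (−1.31).

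GstE7 and GstE8 complete the row. GstE7 had 28.8 FPKM in females and 58.0 FPKM in males (−0.99), just inside the 2-fold line, where GstD9 (−1.07) was the nearest member beyond it. GstE8 had 28.1 FPKM in females and 39.1 FPKM in males (−0.46, which became 0.03 with equal sums). Tandem copies are similar in sequence, and how fragments that match several copies were divided is not given in the sources used here, so single values in both clusters are uncertain.

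**Figure D5:**
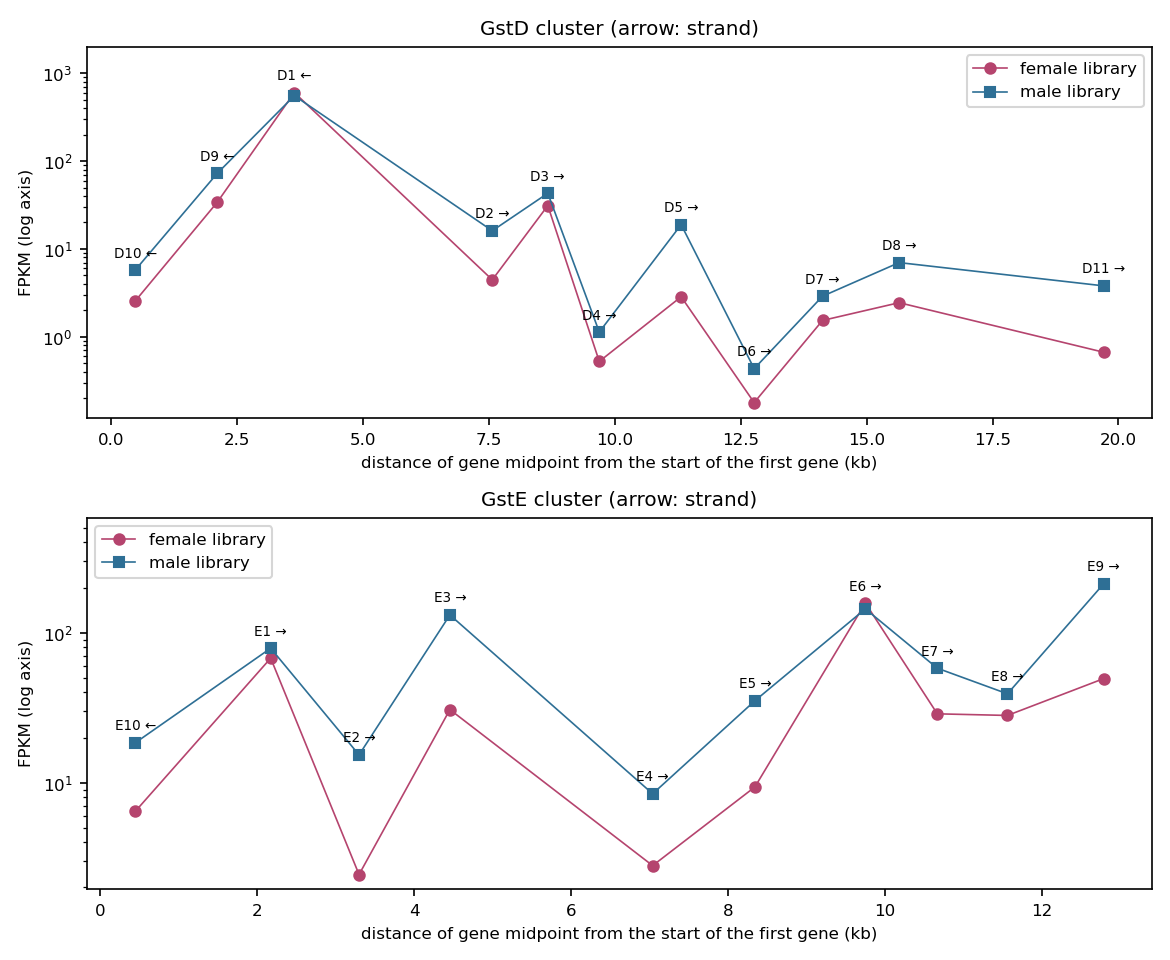
FPKM (log axis) of the 11 genes of the GstD cluster and the 10 genes of the GstE cluster in the female library (circles) and the male library (squares), placed by distance from the start of the first gene (kb), with an arrow for the strand. Libraries nearly meet at GstD1, GstE1 and GstE6 and lie apart at GstD5, GstE2, GstE3 and GstE9.

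Neighbouring members had close ratios in some pairs and distant ones in others. In the GstD cluster 5 of 10 adjacent pairs differed by at least 1 in log2 ratio (a median difference of 0.89), and in the GstE cluster 5 of 9 did (1.11). GstD3 and GstD4 differed by 0.03, GstD10 and GstD9 by 0.15, and GstE2 and GstE3 by 0.18. GstE1 and GstE2 differed by 2.03, and GstD1 and GstD2 by 1.76.

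Among the dispersed epsilon genes, GstE13 and GstE11 had the highest ratios. GstE13 (2R, 5009630 to 5010814) had 40.8 FPKM in females and 15.2 FPKM in males, a log2 ratio of 1.36, which was 0.42 with ribosomal protein genes set equal. Exons of CG18659 on the other strand overlap those of GstE13 by 6 nt. CG18659 had 44.0 FPKM in females and 40.1 FPKM in males. GstE11 had 43.1 FPKM in females and 21.1 FPKM in males (0.99 with 1 FPKM added, just under the 2-fold line, and 1.03 with 0.1 FPKM added). Its ratio was 0.05 under the ribosomal protein scaling. These 2 genes were 3155th and 2951st by level among all loci in females, and 6872nd and 5615th in males. GstE11 was also the only member with a transcript model that the authors added to the annotation.

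GstE12 was the highest of the class in both libraries, with 181 FPKM in females and 351 FPKM in males (−0.95). GstE14, also called noppera-bo and required for making the moulting hormone ecdysone, was low, with 3.21 FPKM in females and 4.80 FPKM in males (−0.46, which became 0.12 with centring).

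GstS1 (FBgn0010226, 2R, 12980751 to 12987006) is the single sigma gene, known as an abundant protein of the flight muscles that acts on aldehydes from oxidised lipids. It had 96.6 FPKM in females and 355 FPKM in males, a log2 ratio of −1.87. The female level was 27.2% of the male one. GstD1 was 6.22 times GstS1 in females and 1.56 times in males. The muscle markers Mhc, Act88F and up had ratios of −1.79, −2.16 and −1.90, of similar size to that of GstS1, and their part in it was not tested. The 4 annotated transcripts of GstS1 are not separated by a value per gene.

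The omega genes lie together on arm 3L (8511985 to 8517966). Omega enzymes use a cysteine in the active site and act as thiol transferases. GstO2 had 122 FPKM in females and 117 FPKM in males (0.06, and −0.91 under the ribosomal protein scaling). GstO1 had 65.0 FPKM in females and 35.2 FPKM in males (0.86, and −0.10 under that scaling), and GstO3 had 33.3 FPKM in females and 79.5 FPKM in males (−1.23). GstO1 was thus 1.95 times GstO3 in females and 0.443 times in males. The fourth gene of the cluster, se, is an omega enzyme needed for red eye pigments whose symbol falls outside the rule. It had 1.21 FPKM in females and 4.66 FPKM in males (−1.36), beside eye markers at −1.63 to −1.59. Because se is low, the added 1 FPKM shrinks its ratio more than those of the eye markers. A link between them was not tested. The exons of se overlap those of GstO2 by 61 nt on the other strand.

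The theta genes fell into unlike groups. GstT1 and GstT2, neighbours 107 nt apart on arm 2R, had close ratios, with 66.9 FPKM in females and 39.2 FPKM in males for GstT1 (0.76), and 37.2 FPKM in females and 19.1 FPKM in males for GstT2 (0.93). Both turned negative with ribosomal protein genes set equal, at −0.21 and −0.02. GstT1 was 1.80 times GstT2 in females and 2.06 times in males. Exons of CG12926 overlap those of GstT2 by 223 nt on the other strand, and CG12926 had 4.76 FPKM in females and 18.8 FPKM in males.

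On the values as deposited neither X-linked theta gene was higher in females, but the direction of GstT3 changed with scaling. GstT3 had 42.0 FPKM in females and 44.6 FPKM in males (−0.09, which became 0.41 with equal sums). GstT4 had 89.7 FPKM in females and 215 FPKM in males (−1.25) and was the highest theta gene by mean level.

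The zeta genes GstZ1 and GstZ2 showed the widest split between neighbours. Zeta enzymes are maleylacetoacetate isomerases of tyrosine breakdown. GstZ1 had 19.6 FPKM in females and 9.73 FPKM in males (0.94), and GstZ2, 268 nt away on the same strand, had 4.51 FPKM in females and 22.2 FPKM in males (−2.08). GstZ1 was 4.35 times GstZ2 in females and 0.438 times in males, a change of 9.93-fold in their ratio that no scaling of the libraries can alter. The signs of both genes were the same under every scaling, but GstZ1 was only at 0.03 under the ribosomal protein scaling. Exons of ps on the other strand overlap GstZ1 by 97 nt, and ps was higher than GstZ1, at 33.4 FPKM in females and 125 FPKM in males. Whether strand was used in counting is not given in the sources used here.

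Gene structure was read beside the ratios. Of 17 single-exon members 16 were counted, and 9 of them (56.3%) were at least 2-fold higher in males, with a median log2 ratio of −1.26. Of 18 members with more than 1 exon, 6 (33.3%) were, with a median of −0.27 that turned to 0.18 with equal sums. Over all loci counted the share was 40.7%, which lies between the 2 groups. With equal sums 6 of the 16 and 3 of the 18 passed, against 31.2% of all loci. The single-exon members are GstE1 to GstE10 and GstD2 to GstD8. Within the GstD cluster, where exon number varies, the single-exon genes GstD2 to GstD8 had a median of −0.92 over the 6 counted. GstD1, GstD9 and GstD10, each with 2 exons, had a median of −0.93, and GstD11, with 4 exons, was at −1.53. The difference by exon number was not tested. Across the 35 genes the Spearman rho of ratio with exon number was 0.28, as a description. It was 0.15 with mean level on the log2 scale and 0.17 with exonic length.

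Genes that supply or regulate the pathway were read by the same measure. Of 13 genes of glutathione synthesis and recycling, 2 (15.4%) were at least 2-fold higher in females, against 21.5% of all loci. In males 4 (30.8%) were, against 40.7% of all loci. The median log2 ratio was −0.38, which turned to 0.13 with equal sums and 0.20 with centring. Gclc and Gclm, the subunits of the enzyme that limits glutathione synthesis, were close between libraries. Gclc had 44.7 FPKM in females and 45.1 FPKM in males, and Gclm had 99.2 FPKM in females and 91.3 FPKM in males (0.12, which is within the shift between scalings). Zw and Pgd, which make the NADPH used in the pathway, were lower in females (−1.55 and −1.16). Grx-1 had 0.0987 FPKM in females and 139 FPKM in males, and Trxr-2 was listed at 0 in females and at 20.5 FPKM in males.

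Among 6 regulators of detoxification genes none was at least 2-fold higher in males, against 40.7% of all loci. In females 2 (33.3%) were, against 21.5% of all loci: the transcription factor partner tgo (1.64) and the nuclear receptor Hr96 (1.28). The list median was 0.45, and −0.51 under the ribosomal protein scaling. The activator cnc, the fly relative of Nrf2, had 100.5 FPKM in females and 82.3 FPKM in males, and its inhibitor Keap1 had 8.18 FPKM in females and 9.55 FPKM in males. These 2 genes differed by less than the shift that scaling causes.

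Other families of detoxification genes were read against the 40.7% of all loci that were at least 2-fold higher in males. The corresponding share in females was 21.5%. Of 82 genes counted under the cytochrome P450 name pattern, 55 (67.1%) were at least 2-fold higher in males and 5 (6.10%) in females. The median was −1.27, which became −0.79 with equal sums, −0.69 with centring and −2.18 under the ribosomal protein scaling. The pattern also takes in the cyclophilin gene Cyp1 and genes named as pseudogenes, such as Cyp6a15Psi. Among the 5 was Cyp4g1, at 1737 FPKM in females and listed at 0 in males. What that 0 reflects was not tested. Among glucuronosyltransferases and export pumps 7 of 17 (41.2%) were at least 2-fold higher in males and none in females, a share near that of all loci (median −0.81, and −0.23 with centring). Of 5 genes with a related protein fold or the same activity, 1 was at least 2-fold higher in females (Ef1gamma, a subunit of a translation elongation factor, 1.51) and 2 in males (se, and the microsomal enzyme Mgstl at −1.02). The list median of 0.18 was −0.76 under the ribosomal protein scaling. Of 11 antioxidant enzymes, 2 were at least 2-fold higher in females and 3 in males (median −0.56, and 0.02 with centring). Differences between these lists were not tested.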

How the data were processed

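Per the submitters' processing notes the tools were TopHat2 2.0.8 and Cufflinks 2.0.2 and the build BDGP5. The notes give them no role or order. Per the labels' protocols, 200 ng of total RNA from each of 192 lines entered each pool, and libraries were made with TruSeq. The authors deposited FPKM per gene and library, and an annotation that pairs identifiers with symbols. The use of strand and the treatment of multiply matching fragments are not given in the sources used here. Whole fragments could not be recovered: a common step held for 57.0% (female) and 43.3% (male) of low values checked, where 30.0% is chance at a tolerance of 0.15, so the depth is unknown.

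Ratios used a pseudocount of 1 FPKM and a minimum of 1 FPKM in 1 library. A scaling factor was divided evenly between the libraries before the pseudocount was added. All members were named; lists followed preset names. Members and lists were chosen with earlier results of these data known. Python 3.11.15, numpy 2.4.6, pandas 2.3.3, scipy 1.17.1 and matplotlib 3.10.9 were used. Alternatives covered the pseudocount, filter, scaling, threshold and exon overlap.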

Additional observations from a re-analysis of the deposited data

How the results depend on the processing

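No paired analysis was possible because each sex has 1 library, and no replicate could be left out. Of members at least 2-fold higher in females, the count of 1 became 3 with a pseudocount of 0.1 FPKM (8.82% of members, 23.1% of all loci). It became 6 with equal sums (17.6%, all loci 30.6%) and 6 with centring (17.6%, all loci 32.7%). With ribosomal protein genes set equal it was 0 (all loci 8.67%). It became 6 at 1.5-fold (17.6%, all loci 29.7%) and 0 at 4-fold (all loci 7.60%). Without the 8 members whose exons overlap another gene it was 0 (all loci 21.5%). GstE13, with 6 nt of overlap, is among those 8. Of members at least 2-fold higher in males, the count of 15 became 9 with equal sums (26.5% of members, 31.2% of all loci) and 8 with centring (23.5%, all loci 26.3%). It became 24 with ribosomal protein genes set equal (70.6%, all loci 57.2%) and 5 at 4-fold (14.7%, all loci 20.3%). It was between 11 and 19 under the other alternatives (32.4% to 55.9% of members, where all loci had 24.3% to 49.8%). The median log2 ratio of −0.94 became −0.57 with a pseudocount of 5 FPKM, −0.47 with equal sums, −0.36 with centring, −1.81 with ribosomal protein genes set equal and −1.10 without the overlapping members. It was negative under every alternative run. No member past 2-fold changed sign under another pseudocount or scaling. Adding genes that RefSeq names Gst could not be run as an alternative, because all 35 symbols there were already members.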

Other observations

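Genes inside or beside the GST clusters had ratios at varied distances from that of the adjacent member. No limit for a near ratio was set, and examples follow. Dp1, the gene after the GstE cluster, had 145 FPKM in females and 80.9 FPKM in males (0.84), beside GstE9 at −2.08. Idgf5 was at −1.27 beside GstE10 at −1.39, CG34402 at −1.21 beside GstD11 at −1.53, and CG16779 at −1.47 beside GstZ2 at −2.08. CG10035, between GstD8 and GstD11, had 2.19 FPKM in females and 0.229 FPKM in males (log2 ratio 1.37), beside GstD8 at −1.21. Tim17a1, which ends just before GstD10, encodes a mitochondrial import protein and had 0.0195 FPKM in females and 42.0 FPKM in males (−5.40), beside −0.93 for GstD10. In the gap between GstE3 and GstE4 lie the annotated noncoding genes CR43687, at 0.240 FPKM in females and 0.246 FPKM in males, and CR43688, listed at 0 in females and at 0.128 FPKM in males. An unannotated locus between GstD1 and GstD2 had 0.284 FPKM in females and 0.298 FPKM in males. The gene after the omega cluster, foi, had 64.7 FPKM in females and 28.2 FPKM in males (1.17), next to GstO1 at 0.86.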
